A study of Mus musculus with 9 samples.

Results

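The integrated stress response and the unfolded protein response were examined in brain endothelial cells (ECs) through 10 genes, namely Eif2ak3, Ern1, Atf6, Ddit3, Xbp1, Atf4, Ppp1r15a, Trib3, Hspa5 and Herpud1. Used were all peaks of open chromatin that the deposited annotation names for 1 of these genes. There were 153 such peaks among the 253457 peaks of 9 libraries, or 0.0604%, and they were named for 9 of the 10 genes. Omni-ATAC-seq, which marks accessible DNA by cutting it with the Tn5 transposase, was done on nuclei of purified mouse brain ECs. WT Cre mice, young (n = 2) or old (n = 2), carried the label CdH5CRE, a Cre recombinase driven by the VE-cadherin gene Cdh5, with no deletion. EC-K4KO mice, young (n = 3) or old (n = 2), carried the same driver and lacked the transcription factor KLF4 in ECs. All mice had a C57BL/6J background, controls and knockouts both received tamoxifen, and the study used both sexes, with the sex behind each library not given in the sources used here. Age is given in the labels only as young or old, and every young library has 1 name prefix and every old library another, so a batch and age cannot be told apart.

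As background, cells answer misfolded protein in the endoplasmic reticulum (ER) through sensors in its membrane. PERK, encoded by Eif2ak3, phosphorylates the initiation factor eIF2 and so slows translation, while IRE1, encoded by Ern1, splices Xbp1 mRNA, and ATF6 is cut in the Golgi to release a transcription factor. Translation of ATF4 rises when eIF2 is phosphorylated, also through kinases that sense other stresses, and ATF4 induces CHOP (Ddit3), GADD34 (Ppp1r15a) and TRIB3. GADD34 brings a phosphatase to eIF2 and restores translation. BiP (Hspa5) is the main ER chaperone and HERPUD1 serves the removal of misfolded proteins.

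The lists differed in length. Young WT Cre lists held 6157 and 9598 peaks, young EC-K4KO lists 23848 to 27992, and the 4 old lists 32555 to 45026. Read counts were not analysed here, so depth is unknown and no counting interval is given. Positions are on mm10 (GRCm38). The number of endothelial marker genes with a peak over the start site was 7 of 12 in both young WT Cre libraries and 10 or 11 in the other 7, microglial and neutrophil markers had 0 in every library, and other lists reached at most 3 of 6 (astrocyte and neuron, in old EC-K4KO). The part of these markers in the results below was not tested. The Klf4 start site was covered in all 9 libraries, which does not test the deletion, because the sources used here do not give the deleted part.

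The first question was which of the genes had an open start site in which group. A peak lay over an annotated transcription start site (TSS) in all 9 libraries for 6 genes, Eif2ak3, Ern1, Ddit3, Ppp1r15a, Hspa5 and Herpud1. Both young WT Cre libraries lacked a peak over the Atf6 and Trib3 TSS, which the other 7 libraries all had. The Xbp1 TSS was covered in 6 libraries, and the Atf4 TSS in none. Among 14573 genes with a covered TSS in at least 1 library, 3608 were covered in all 9, and 15.8% had the pattern of Atf6 and Trib3. Covered genes numbered 4104 and 5966 in young WT Cre against 9300 to 13214 in the other libraries, and the pattern of these 2 genes was read against that share. By the class of the deposited annotation, which follows the peak centre, 5 genes had a promoter peak in each young WT Cre library, 5 or 6 in young EC-K4KO and 6 in each old library. The differences between group means were 0.333 genes for EC-K4KO and 0.667 for old age, with no test. These counts are below those of covered TSSs because the peak at the Herpud1 start was classed as intron and that at Xbp1 as exon in all 9 libraries, the Ppp1r15a promoter peak was named for Plekha4 in 5, and the Atf6 peak in young EC-K4KO replicates 2 and 3 and the Trib3 peak in replicate 3 were classed as intron or exon.

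**Figure D1:**
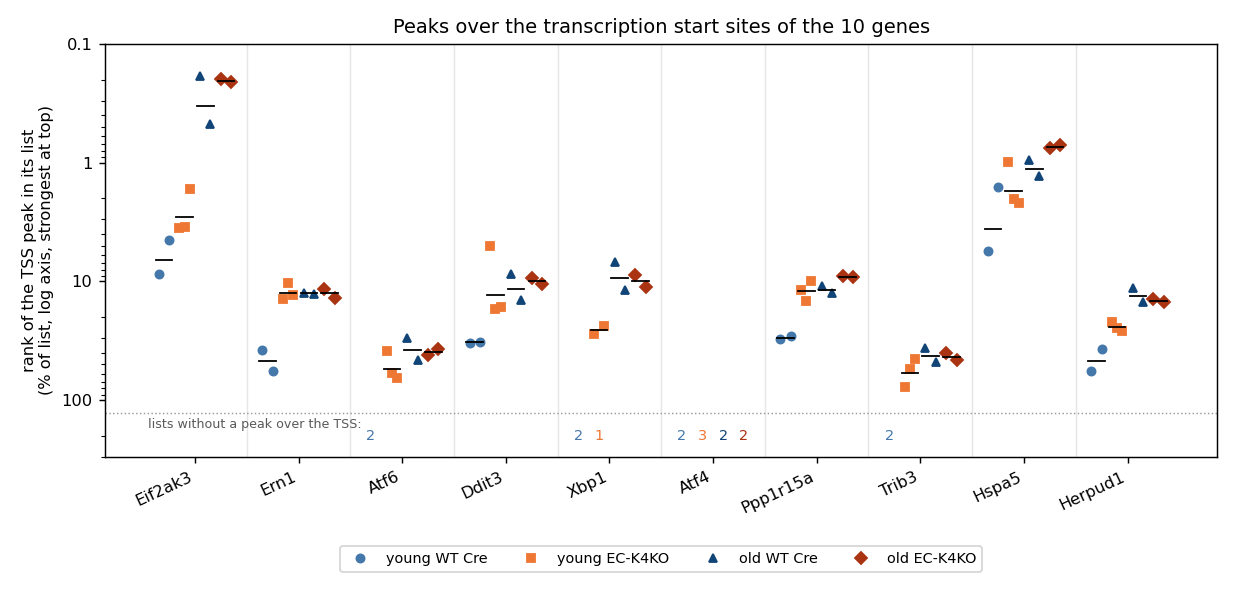
Rank of the peak over the TSS of each gene within its own list, as percent of the list on a log axis with the strongest peaks at the top, for the 9 libraries in 4 groups. Points are libraries, lines are group means, and the numbers below the dotted line count libraries with no peak over the TSS. Eif2ak3 in the 4 old libraries sat between 0.185% and 0.476%.

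Strength was compared between libraries in regions that held a peak in all 9 lists. The shortest lists therefore limited which regions were tested, and Atf6, Trib3 and the regions absent from young WT Cre were not among them. Each library's 4872 shared regions were ranked by the peak caller's -log10 p and expressed as a strength percentile, from 0 for the weakest to 100 for the strongest. Of the regions with a peak named for a member, 8 were shared, namely the TSS regions of Eif2ak3, Ern1, Ddit3, Xbp1, Ppp1r15a, Hspa5 and Herpud1 and a further Herpud1 region within Slc12a3. They were fitted with all others in limma, with Benjamini-Hochberg adjustment over the 4872 regions and a threshold of 0.05. For genotype, EC-K4KO against WT Cre averaged over the ages, 0 of the 8 passed, as 0.246% of all regions did, with 1 of the 8 at an unadjusted p under 0.05 and 0 passing in the exact permutation test. For age, old against young averaged over the genotypes, 2 of the 8 passed in limma and both were higher in old mice. In the exact permutation test 0 of the 8 passed (adjusted p = 0.136 for Eif2ak3 and 0.111 for the region within Slc12a3). That test gives no p below 0.0167, the value of the region within Slc12a3. After adjustment over 4872 regions such a p passes only if very many regions share it. The exact test therefore cannot decide for or against the limma calls. In limma 20.0% of all regions passed for age, 9.48% with higher strength in old. The median age difference was -0.81 percentile points over the 8 regions and 0.27 over all. For the interaction, 0 of the 8 passed in limma, as 0% of all regions did, and 0 of the 8 had an unadjusted p under 0.05.

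Among the sensors, the Eif2ak3 promoter gave the clearest age difference. PERK phosphorylates eIF2, and the peak at its gene was among the strongest in every list. Its strength percentile was 88.9 and 91.2 in young WT Cre, 82.6, 82.2 and 90.4 in the young EC-K4KO libraries, 98.3 and 96.8 in old WT Cre, and 98.2 and 98.3 in old EC-K4KO. All 4 old libraries lay above all 5 young ones. Of all shared regions 9.48% passed with higher strength in old, and how many had such a separation was not counted. The age difference was 10.4 percentile points (SE 1.86, limma adjusted p = 0.00753), and that for genotype was -2.16 (SE 1.86, adjusted p = 0.617). Within WT Cre the age difference was 7.53 (SE 2.75) and within EC-K4KO 13.2 (SE 2.51). The -log10 p is an average over the peak, which was 429 and 470 bp wide in young WT Cre, 625 to 676 bp in young EC-K4KO and 524 to 579 bp in old libraries. The part of width in this difference was not tested. Within its list the peak ranked 539 and 433 in young WT Cre, 851, 875 and 468 in the young EC-K4KO libraries, 81 and 155 in old WT Cre, and 89 and 82 in old EC-K4KO. Its fold enrichment over the local background was 7.62 ± 0.225 (SD, n = 2) in young WT Cre, 10.02 ± 2.77 (n = 3) in the young EC-K4KO libraries, 13.3 ± 1.05 (n = 2) in old WT Cre and 14.6 ± 0.362 (n = 2) in old EC-K4KO. With regions ranked by fold in place of -log10 p, the age difference missed the threshold (8.33 points, SE 3.41, adjusted p = 0.0882), and it passed in each of the 9 fits that left out 1 library, with values from 6.45 (without young WT Cre replicate 1) to 11.7.

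The Eif2ak3 promoter is shown because of this difference. Its peak lay at chr6:70844075-70844781, over the first exon and the sequence before it. The 250 bases before the RefSeq start (GRCm38.p6, chr6:70844265-70844514, plus strand) hold 6 CCAAT boxes, the site of NF-Y, and 1 AP-1 motif (TGANTCA), which overlaps a CCAAT box by no base. Capitals mark these motifs.
Eif2ak3 promoter: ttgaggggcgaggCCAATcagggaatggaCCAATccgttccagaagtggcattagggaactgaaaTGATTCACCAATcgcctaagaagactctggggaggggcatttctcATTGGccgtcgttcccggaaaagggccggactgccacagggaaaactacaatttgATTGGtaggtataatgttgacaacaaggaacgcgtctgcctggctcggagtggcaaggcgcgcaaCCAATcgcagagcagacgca
A CCAAT box was present in 33.8% and an AP-1 motif in 6.75% of the 32851 such windows of all genes. RefSeq windows were at hand for 9 of the 10 genes, all but Atf6.

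Eif2ak3 also had a peak at -19857 bp (chr6:70824307-70825020), annotated as intergenic. It was absent from both young WT Cre lists, present in the other 7, and ranked between 22.9% and 52.5% of the list. Of the other 3 Eif2ak3 regions away from the TSS, 2 were found in 1 library each and 1, at 27879 bp in an intron, in 2.

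IRE1 is the sensor with a ribonuclease, and its gene Ern1 showed no difference past the threshold with all 9 libraries. Its strength percentile was 52.8 and 15.01 in young WT Cre, 37.9, 50.5 and 35.1 in the young EC-K4KO libraries, 22.0 and 32.1 in old WT Cre, and 24.5 and 23.2 in old EC-K4KO. The young WT Cre libraries lay at both ends of the young range. The age difference was -12.1 points (SE 7.93, limma adjusted p = 0.294) and that for genotype 2.03 (SE 7.93, adjusted p = 0.933). The age difference passed without young WT Cre replicate 2 (-21.4, adjusted p = 0.0298) and was -2.34 without replicate 1 (adjusted p = 0.81). Width was 427 and 949 bp in young WT Cre and 793 to 1048 bp in the other 7 libraries. Its differences were 0.37 for genotype (limma adjusted p = 0.191) and 0.25 for age (adjusted p = 0.322). Without young WT Cre replicate 2 they were 0.66 and 0.54, and the interaction was -0.98. Both old EC-K4KO libraries and old WT Cre replicate 2 had a further Ern1 peak in an intron at 19183 bp.

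ATF6 is the sensor that becomes a transcription factor after cleavage. The peak over its TSS was absent from both young WT Cre lists, ranked between 38.4% and 65.2% in young EC-K4KO and between 30.3% and 46.3% in the 4 old lists. Its width was 362, 565 and 436 bp in the young EC-K4KO libraries, 368 and 1333 bp in old WT Cre, and 1327 and 1154 bp in old EC-K4KO. In the same region old WT Cre replicate 1 had a separate peak of 219 bp that did not cover the Atf6 TSS. None of these peaks was among the 6157 strongest of its list, 6157 being the length of the shortest list, young WT Cre replicate 1. The Atf6 TSS region also holds the TSS of Gm9929. The 6 other Atf6 regions were intronic, and 4 of them were found in 1 library each.

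Of the transcription factors, Ddit3 had a peak over its TSS in every library. Its product CHOP drives apoptosis under lasting ER stress. The shared region (chr10:127288788-127291198) also holds the TSS of Gm4189 and that of Mbd6, a methyl-CpG-binding domain gene on the other strand. Young WT Cre replicate 1 and young EC-K4KO replicate 1 had summed widths of 659 and 845 bp there, and the other 7 libraries 1721 to 2374 bp. Strength percentiles were 58.3 and 75.7 in those 2 libraries and 23.9 to 42.4 in the other 7. The deposited -log10 p is an average over the whole peak, so it also moves with where the peak edges are drawn. The age difference in strength was -13.5 points (SE 10.7, limma adjusted p = 0.385) and in width 0.83 on the log2 scale (SE 0.37, adjusted p = 0.074), and neither passed. That in width passed without young WT Cre replicate 2 (1.18, adjusted p = 0.0216) and with a replicate block (0.96, adjusted p = 0.0395).

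The Ddit3 promoter is shown because it was 1 of 2 promoters of these genes, with Ern1, to hold the KLF motif GGGNGTGG. In the 250 bases before its start (chr10:127290543-127290792, plus strand) it also held an ETS motif (CCGGAAGT), an AP-1 motif and a CCAAT box, all in capitals.
Ddit3 promoter: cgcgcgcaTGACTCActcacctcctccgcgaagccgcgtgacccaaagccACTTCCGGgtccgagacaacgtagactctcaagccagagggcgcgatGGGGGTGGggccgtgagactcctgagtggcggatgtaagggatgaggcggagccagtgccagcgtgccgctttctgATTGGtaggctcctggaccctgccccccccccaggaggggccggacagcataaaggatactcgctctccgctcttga
The KLF motif was present in 15.9% and the ETS motif in 2.88% of all such windows. These are matches of letters, not sites shown to be bound.

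XBP1 is the transcription factor that IRE1 activates, and its gene had the most peaks away from the start. The first-exon peak was found in all 9 libraries. It began 163 and 139 bp after the TSS in young WT Cre and 40 bp after it in young EC-K4KO replicate 1, and reached across the TSS in the other 6. Its width was 235 and 187 bp in young WT Cre, 399, 754 and 639 bp in the young EC-K4KO libraries, 447 and 589 bp in old WT Cre, and 698 and 625 bp in old EC-K4KO. Both young WT Cre values lay below all others. Width was greater by 0.91 on the log2 scale in EC-K4KO (SE 0.21, limma adjusted p = 0.0211) and by 0.74 in old mice (SE 0.21, adjusted p = 0.0181). Of all shared regions 31.0% passed for width with genotype and 67.8% with age. Without old EC-K4KO replicate 1 or 2 or old WT Cre replicate 1 the genotype call was lost (adjusted p up to 0.0829), as was the age call without old EC-K4KO replicate 1 or old WT Cre replicate 2 (up to 0.0637). Centred on the library median of width over the shared regions, the differences were 0.53 (adjusted p = 0.18) and 0.26 (adjusted p = 0.405). With a replicate block the genotype call was lost (0.88, adjusted p = 0.0635). Strength at this region, at 8.73 to 54.6 percentile points, did not pass for genotype (-12.8, SE 8.65, adjusted p = 0.516) or for age (11.8, SE 8.65, adjusted p = 0.35). The age difference passed without young WT Cre replicate 2 (22.4, adjusted p = 0.0376) and was 2.53 without replicate 1 (adjusted p = 0.843).

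The Xbp1 gene had 8 further regions, 7 of them upstream of the TSS. Regions at -21483 bp and -14546 bp were found in neither young WT Cre library and in all 7 others. A region at -34991 bp was found in 6 libraries and 1 at -28450 bp in 4. The peak at -21483 bp (chr11:5498588-5499606), which also holds the TSS of the transcript Gm11963, ranked 6560, 8852 and 9480 in the young EC-K4KO libraries, 4736 and 3647 in old WT Cre, and 3185 and 2466 in old EC-K4KO. It was thus among the 6157 strongest peaks in the 4 old libraries and in 0 of the 5 young ones. Its fold enrichment was 3.84, 5.75 and 5.74 in the young EC-K4KO libraries, 7.19 and 9.14 in old WT Cre, and 10.4 and 10.6 in old EC-K4KO. Such regions were not tested, since limma was fitted to shared regions only.

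The 200 bases at the centre of the stretch covered in all 7 libraries (chr11:5499059-5499258, plus strand) are shown for this difference in rank. Capitals mark the 1 CCAAT box, the one motif of the 9 searched that it held.
Xbp1 upstream region: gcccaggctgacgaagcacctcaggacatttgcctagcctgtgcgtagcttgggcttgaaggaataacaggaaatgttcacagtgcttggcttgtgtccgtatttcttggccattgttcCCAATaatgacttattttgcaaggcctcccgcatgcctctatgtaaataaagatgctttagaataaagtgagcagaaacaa
A CCAAT box was present in the central 200 bases of 25.1% of the 79825 regions without a TSS. The region shown is not among them, as it holds the TSS of Gm11963. Their windows were centred on the whole region, not on a stretch common to libraries.

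**Figure D2:**
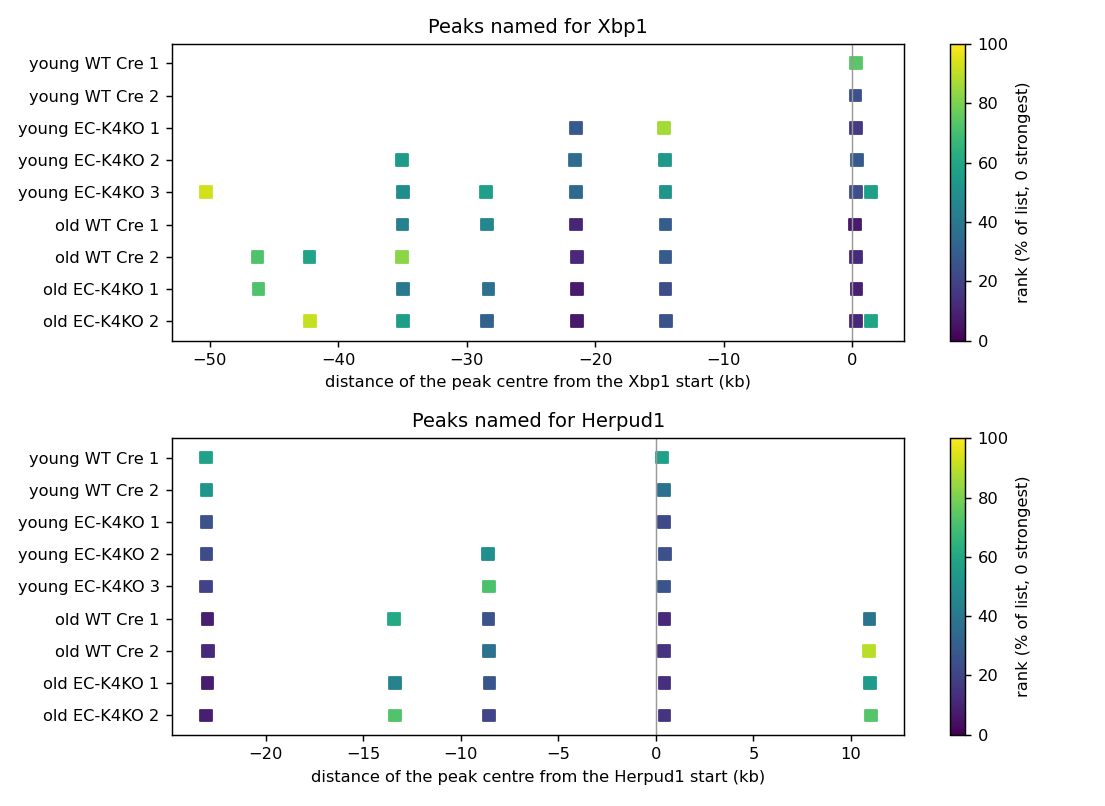
Distance in kb of the centre of every peak named for Xbp1 and Herpud1 from the start of the gene, one row per library, coloured by rank within the list (0% strongest). The regions at -21483 and -14546 bp of Xbp1 have a peak in each library except the 2 young WT Cre, and the Herpud1 peak at -23049 bp has one in all 9.

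ATF4 is the factor on which the integrated stress response converges. In the lists used here no peak lay within 22820 bp to the left or 117383 bp to the right of its TSS (chromosome 15, 80255184), a stretch of 140202 bp without a peak in any library. The stretch also holds the start sites of Mief1, Rps19bp1, Cacna1i and AC140267.1. Peak numbers in each list run without a gap. No value is therefore given for Atf4, and the state of its promoter was not analysed here.

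Of the feedback genes, Ppp1r15a showed the clearest age difference in width. GADD34, its product, ends the translation block. The peak over its TSS (chr7:45525921-45526984) also covered the TSS of Plekha4, a gene on the other strand. Its width was 576 and 583 bp in young WT Cre, 512, 611 and 617 bp in the young EC-K4KO libraries, 1025 and 946 bp in old WT Cre, and 1064 and 1023 bp in old EC-K4KO. All 4 old libraries lay above all 5 young ones, and the peak was wider in old mice by 0.81 on the log2 scale (SE 0.087, limma adjusted p = 0.00133), or 1.75-fold. Of all shared regions 67.8% passed for width with age, nearly all wider in old. How many had such a separation was not counted. The genotype difference was 0.04 (SE 0.087, adjusted p = 0.682). The extra width lay on the side of Plekha4, where the peak reached 300 to 320 bp beyond the outer Ppp1r15a start in young and 635 to 716 bp in old libraries. On the Ppp1r15a side it reached 211 to 316 bp in young and 310 to 347 bp in old libraries. With widths centred on each library's median over the shared regions, the age difference was 0.32 and missed the threshold (limma adjusted p = 0.0501).

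Peak names did not follow the covered TSS. In 4 of the 5 young libraries the peak over the start was named for Ppp1r15a, whereas in young EC-K4KO replicate 1 and all 4 old libraries it was named for Plekha4. In the 4 old libraries the peak named for Ppp1r15a was instead a weak one near the end of the gene, at 4249 bp from the TSS, which ranked between 39.4% and 53.7% of the list. Gene names alone would therefore have taken the Ppp1r15a promoter as open in 4 libraries, while the TSS was covered in all 9. The strength percentile of the region was 61.4 and 47.0 in young WT Cre, 46.9, 34.8 and 47.0 in the young EC-K4KO libraries, 27.3 and 32.5 in old WT Cre, and 34.4 and 39.9 in old EC-K4KO. The age difference of -15.1 points (SE 6.17, limma adjusted p = 0.108) did not pass, and it passed in lists of equal length (-19.7, adjusted p = 0.0364).

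The 61 bases between the outer Ppp1r15a start and the Plekha4 start (chr7:45526269-45526329, minus strand, read towards Ppp1r15a) are shown because the peak lay over them in every library. Capitals mark a cyclic AMP response element (CRE, TGACGTCA), which was present in 1.55% of the promoter windows of all genes.
Ppp1r15a to Plekha4: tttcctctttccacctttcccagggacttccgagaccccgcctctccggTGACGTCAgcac

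**Figure D3:**
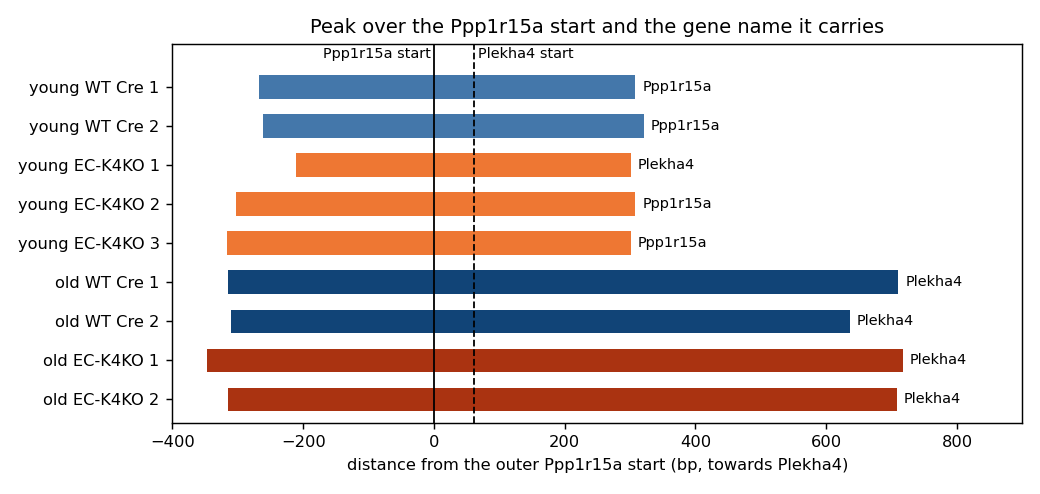
Extent in bp of the peak over the Ppp1r15a start in each library, measured from the outer start towards Plekha4 (dashed line), with the gene name the annotation gives it. The right edge lies at 300 to 320 bp in the 5 young libraries and at 635 to 716 bp in the 4 old ones.

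Trib3 encodes a pseudokinase that restrains CHOP and AKT signalling. The peak over its TSS was absent from both young WT Cre lists and ranked 77.9%, 54.9% and 45.4% in the young EC-K4KO libraries, 36.7% and 48.3% in old WT Cre, and 39.95% and 46.2% in old EC-K4KO. It was not among the 6157 strongest peaks of any list, as for Atf6. Its width was 308 to 1110 bp in young EC-K4KO and 1184 to 1249 bp in the 4 old libraries. None of the 9 motifs was found in the 250 bases before its start, nor in those of Xbp1.

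Of the effectors, Hspa5 had a peak of high strength in every library. BiP, its product, holds the sensors inactive until misfolded protein draws it away. The strength percentile of its promoter was 92.9 and 96.8 in young WT Cre, 95.2, 89.4 and 87.6 in the young EC-K4KO libraries, 91.5 and 91.3 in old WT Cre, and 93.0 and 94.3 in old EC-K4KO. All 9 libraries lay between 87.6 and 96.8. Both old WT Cre libraries lay below both old EC-K4KO and both young WT Cre libraries, and the young EC-K4KO libraries spread across the others. Neither the genotype difference of -0.94 points (SE 1.75, limma adjusted p = 0.833) nor the age difference of -0.29 (SE 1.75, adjusted p = 0.921) passed. Its width was 436 and 422 bp in young WT Cre, 515 to 873 bp in the young EC-K4KO libraries, and 740 to 812 bp in the 4 old libraries. It was wider in old mice by 0.47 on the log2 scale (SE 0.17, adjusted p = 0.0386), a call lost without any 1 of the WT Cre or old EC-K4KO libraries (0.35 to 0.54 over all omissions, adjusted p up to 0.102). With widths centred on the library median it turned to -0.015 (adjusted p = 0.955). The genotype difference in width of 0.35 (adjusted p = 0.123) passed without young EC-K4KO replicate 1 (0.47, adjusted p = 0.00693). Hspa5 had 0 peaks away from its TSS.

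The Hspa5 promoter held the ER stress response element (ERSE: CCAAT, 9 bases, CCACG), which ATF6 and NF-Y bind and which 0.113% of all promoter windows held. It is shown, in capitals, within 30 bases that all 9 peaks covered (chr2:34772020-34772049, plus strand).
Hspa5 ERSE: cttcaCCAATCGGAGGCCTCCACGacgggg

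Herpud1, whose TSS region also holds the TSS of Gm15890, encodes an ER membrane protein of the degradation machinery. At its TSS (chr8:94386081-94387788) the strength percentile was 31.2 and 36.0 in young WT Cre, 18.1, 12.5 and 6.68 in the young EC-K4KO libraries, 25.5 and 24.99 in old WT Cre, and 16.8 and 19.5 in old EC-K4KO. All EC-K4KO libraries lay below the WT Cre libraries of their age, with a genotype difference of -14.1 points (SE 4.03), which did not pass after adjustment (limma adjusted p = 0.145, exact permutation p = 0.0167, the smallest it can give). How many of all regions had such an order was not counted. The peak was also wide, at 1066 and 1353 bp in young WT Cre, 1387 to 1521 bp in the young EC-K4KO libraries, and 1572 to 1705 bp in old libraries. Width passed for age (0.33 on the log2 scale, SE 0.087, adjusted p = 0.0162) and not for genotype (0.18, SE 0.087, adjusted p = 0.126). The age call was lost without old WT Cre replicate 1 or old EC-K4KO replicate 1 (adjusted p up to 0.0552), and with centred widths it turned to -0.16 (adjusted p = 0.182). The genotype difference in width passed without young WT Cre replicate 2 (0.27, adjusted p = 0.012). The age difference in strength was -1.32 points (adjusted p = 0.835) and passed when regions were ranked by fold (-10.2, adjusted p = 0.0348).

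The Herpud1 promoter (chr8:94386179-94386428, plus strand) was the only one of the 9 to hold ERSE-II (ATTGG, 1 base, CCACG) and the composite C/EBP-ATF site TTGCATCA to which ATF4 and CHOP bind. Capitals mark these and the CCAAT boxes, 1 of which is part of ERSE-II.
Herpud1 promoter: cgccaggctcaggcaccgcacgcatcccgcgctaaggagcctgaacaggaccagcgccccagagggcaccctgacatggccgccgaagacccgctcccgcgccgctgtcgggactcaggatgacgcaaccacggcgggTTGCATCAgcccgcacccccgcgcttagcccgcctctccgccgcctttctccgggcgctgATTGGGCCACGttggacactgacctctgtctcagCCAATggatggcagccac
ERSE-II was present in 0.0304% and the composite site in 0.791% of all such windows. The core of the UPR element, TGACGTGG, was in 0 of the 9 promoters and in 0.563% of all windows.

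The second region that passed for strength lay at -23049 bp from the Herpud1 TSS (chr8:94363179-94363829), in the last intron of Slc12a3, a kidney sodium-chloride transporter. It carries the name of Herpud1 by distance alone. Its strength percentile was 30.1 and 18.4 in young WT Cre, 12.7, 15.6 and 17.1 in the young EC-K4KO libraries, 38.4 and 35.5 in old WT Cre, and 40.3 and 43.0 in old EC-K4KO. All 4 old libraries lay above all 5 young ones, by a mean of 19.6 points (SE 4.61, limma adjusted p = 0.0184). Of all shared regions 9.48% passed with higher strength in old, and those with such a separation were not counted. Without either old WT Cre or either old EC-K4KO library the call was lost, with values from 16.4 to 22.6 points over all 9 omissions and an adjusted p of at most 0.0856. It was also lost in lists of equal length (11.04 points, adjusted p = 0.0835). The genotype difference was -2.21 points (SE 4.61, adjusted p = 0.854). Its width was 195 and 275 bp in young WT Cre, 318, 358 and 466 bp in the young EC-K4KO libraries, 632 and 581 bp in old WT Cre, and 650 and 529 bp in old EC-K4KO. Width was greater in old mice by 1.01 on the log2 scale (SE 0.16, adjusted p = 0.00365), a 2.02-fold difference, and still passed with widths centred on the library median (0.53, adjusted p = 0.0397).

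The centre of this region (chr8:94363318-94363517, plus strand) is shown as the other sequence whose strength passed for age. Capitals mark its 1 CCAAT box, on the minus strand.
Slc12a3 intronic region: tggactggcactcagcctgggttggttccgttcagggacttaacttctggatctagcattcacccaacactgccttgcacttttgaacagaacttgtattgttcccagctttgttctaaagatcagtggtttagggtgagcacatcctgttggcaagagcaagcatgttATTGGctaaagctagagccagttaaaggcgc

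**Figure D4:**
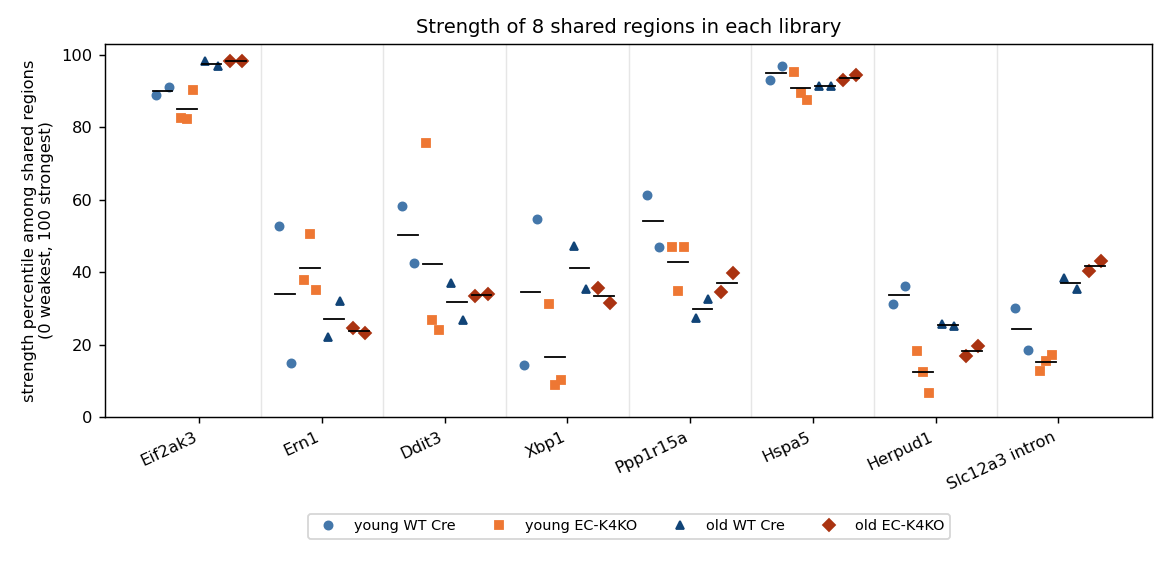
Strength percentile of the 8 shared regions in each library (0 weakest, 100 strongest among 4872 shared regions). Points are libraries and lines are group means, and the 4 old libraries lie above the 5 young ones at Eif2ak3 and at the Slc12a3 intronic region named for Herpud1. How many of all shared regions had such a separation was not counted.

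Herpud1 had 3 further regions away from its TSS. That at -8551 bp was found in 6 libraries, namely young EC-K4KO replicates 2 and 3 and the 4 old ones, and that at 10962 bp in the 4 old libraries. The region at -13385 bp was found in both old EC-K4KO libraries and old WT Cre replicate 1. Ranks in these 3 regions ran from 20.6% to 89.4% of the list.

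Peaks of these genes outside the promoter class numbered 4 and 3 in young WT Cre, 8, 9 and 16 in the young EC-K4KO libraries, 12 and 15 in old WT Cre, and 17 and 17 in old EC-K4KO. The mean was 3.5 ± 0.707 (SD, n = 2), 11 ± 4.36 (n = 3), 13.5 ± 2.12 (n = 2) and 17 ± 0 (n = 2) in that order. The difference was 5.5 peaks for EC-K4KO and 8 for old age, with no test. Per 10000 peaks of the list, values ranged from 2.73 to 6.50, and the highest was a young WT Cre library. Among the 6157 strongest peaks of each list the numbers were 3 or 4 in young WT Cre, 1 to 3 in the young EC-K4KO libraries, 4 in old WT Cre and 3 or 4 in old EC-K4KO. Of the 25 member regions without their own gene's TSS, 8 were found in 1 library. Leaving out regions with any TSS, 15 were found in at least 2 libraries, and 2 of these, at -19857 bp of Eif2ak3 and -14546 bp of Xbp1, were in 0 of 2 young WT Cre and 7 of 7 other libraries, as 5.77% of all such regions were.

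Width was tested in the same 8 regions, as the log2 of the summed width in bp. For genotype 2 of the 8 passed, Xbp1 and Eif2ak3, and 31.0% of all regions did, all wider in EC-K4KO. For age 5 of the 8 passed, Xbp1, Ppp1r15a, Hspa5 and both Herpud1 regions, and 67.8% of all regions did. The share of the 8 regions was thus near that of all regions in both comparisons, and the median difference was 0.32 over the 8 against 0.35 over all for genotype and 0.61 against 0.47 for age. For the interaction 0 of the 8 passed in limma, with 3 at an unadjusted p under 0.05, and 8.64% of all regions did. With widths centred on the library median, 0 of the 8 passed for genotype and 2 for age, where 8.52% of all regions passed. These were the Slc12a3 intronic region, wider in old, and Eif2ak3, whose age difference turned from 0.04 to -0.44 (SE 0.096, adjusted p = 0.0381). The Eif2ak3 peak was 429 and 470 bp wide in young WT Cre, 625 to 676 bp in young EC-K4KO and 524 to 579 bp in the 4 old libraries, and its genotype difference of 0.32 (SE 0.08, adjusted p = 0.0271) turned to -0.06 when centred. That genotype call was also lost without any 1 of the 4 old libraries or young EC-K4KO replicate 2 (adjusted p up to 0.104) and with a replicate block (0.33, adjusted p = 0.0672). Without young EC-K4KO replicate 1 the interaction passed at Xbp1 and Hspa5, in a fit where 1011 of 4908 regions passed.

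**Figure D5:**
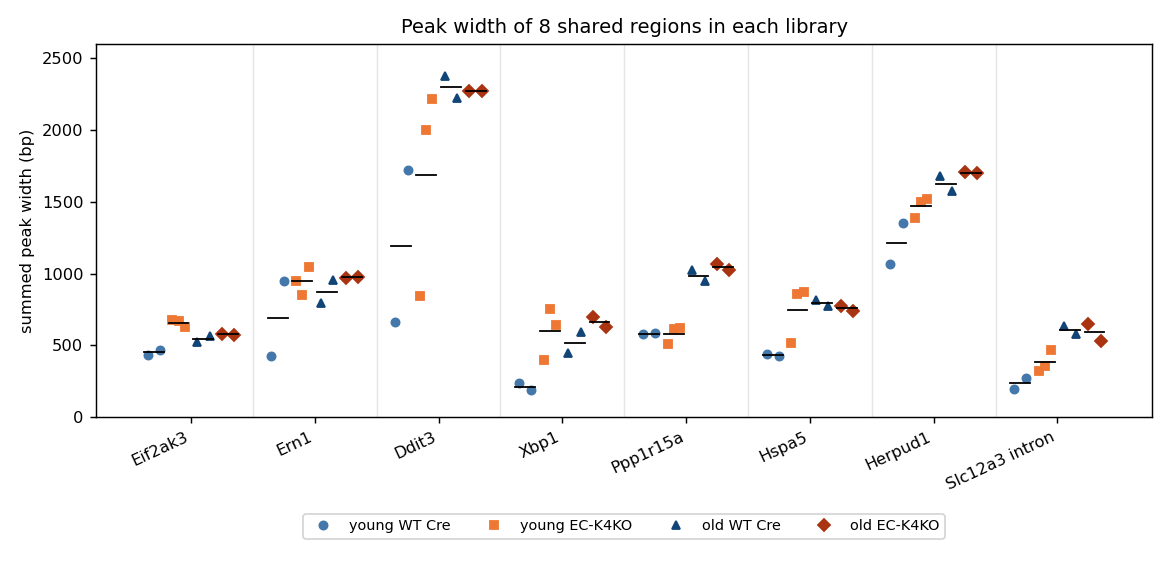
Summed peak width in bp of the 8 shared regions in each library. Points are libraries and lines are group means. At Ppp1r15a the 5 young libraries lie between 512 and 617 bp and the 4 old ones between 946 and 1064 bp. Of all shared regions 67.8% passed for width with age.

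Other genes of the response were read from a list of 59, of which 27 had a covered TSS in all 9 libraries, 5 in none and 6 in 0 of 2 young WT Cre and 7 of 7 other libraries. Of all genes with a covered TSS in at least 1 library, 15.8% had this last pattern. A shared region at the TSS allowed a test for 33. For strength, 0 passed for genotype in limma, with 3 at an unadjusted p under 0.05, and 4 rose and 3 fell with age, where 20.0% of all regions passed for age and 9.48% with higher strength in old, so the 7 of 33 are near the share of all regions. Those higher in old mice were Pdia4, a disulfide isomerase (4.54 points, SE 0.999, adjusted p = 0.0143), the lectin chaperones Canx (14.4, SE 3.45, adjusted p = 0.0192) and Calr (5.88, SE 1.84, adjusted p = 0.0493), and Sel1l, of the degradation complex (15.03, SE 4.05, adjusted p = 0.0303). Those lower were Edem1, which sorts glycoproteins for degradation (-19.1, SE 2.01, adjusted p = 0.00283), the amino acid transporter subunit Slc3a2 (-7.87, SE 2.44, adjusted p = 0.0482) and Eif2s1, the eIF2 subunit that is phosphorylated (-7.67, SE 2.38, adjusted p = 0.0483). The strength percentile of Slc3a2 was 20.5 and 18.1 in young WT Cre and 0.729 to 5.02 in the other 7 libraries, with values of 0.729 to 4.16 in young and 2.31 to 2.72 in old EC-K4KO, and its interaction of 14.96 (SE 4.89) did not pass (adjusted p = 0.329). By group, 3 of 11 tested chaperone and folding genes rose and 0 fell, 1 of 6 genes of ER-associated degradation rose and 1 fell, and 1 of 7 kinases and eIF2 genes and 1 of 5 targets of ATF4 and CHOP fell. None of 4 tested membrane regulators passed, with 1 at an unadjusted p under 0.05. For width, 11 of the 33 were wider in EC-K4KO and 22 in old mice and 0 were narrower, against 31.0% and 67.8% of all regions. For the interaction 3 of the 33 passed, Vcp, Eif2b4 and Eif2s1, all with a lower genotype difference in old mice. Of all regions 8.64% passed for it, nearly all in that direction, so the 3 are near the share of all regions. The smallest adjusted p for both genotype and age was at Vcp, the ATPase that extracts proteins from the ER, whose peak was wider by 1.03 (SE 0.098, adjusted p = 0.00236) and 1.10 (SE 0.098, adjusted p = 0.000735) on the log2 scale, with an interaction of -1.87 (SE 0.196, adjusted p = 0.00375). The Vcp peak was 323 and 242 bp wide in young WT Cre and 1046 to 1223 bp in the other 7 libraries, and in old mice 1139 and 1148 bp in WT Cre against 1223 and 1211 bp in EC-K4KO. Eif2b4 and Eif2s1 also passed in both, as did Atf3 for genotype (0.48, SE 0.11, adjusted p = 0.0193) and Ppp1r15b for age (0.47, SE 0.081, adjusted p = 0.00432). The tested regions of Eif2s1, Eif2b4 and Calr also hold the TSS of Atp6v1d, Snx17 and 1700122E12Rik, in that order. A call there cannot be assigned to either gene alone.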

How the data were processed

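Omni-ATAC-seq peak lists of 9 libraries were analysed. Before deposit, the authors mapped adapter-trimmed reads to mm10 with Bowtie2, kept properly paired unique fragments and called broad peaks with MACS2, on each library alone as the peak names show. Each list has the authors' score (10 times the -log10 q), their fold enrichment, a ratio to the local background, and their deposited -log10 p and -log10 q, all averaged over the peak, with q up to about 0.1. These averages also depend on where the peak edges lie. The deposited annotation gives a distance to the TSS, a class and a gene name. All 253457 peaks lay within the chromosomes of GRCm38, so TSS positions came from GENCODE M21 (basic) and sequences from RefSeq GRCm38.p6.

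An overlap of 1 bp joined peaks of different lists, giving 92495 regions. In the 4872 regions with a peak in all 9 lists, the strength percentile and log2 summed width were fitted with limma 3.58.1 in R 4.3.3 (trended variance, group means), as contrasts for genotype, age and their interaction, with Benjamini-Hochberg adjustment and a threshold of 0.05. The study's DiffBind test needs read counts, which were not used here. Other computation used Python 3.11.15. The fit and the exact test were tested on simulated data. Nothing in the labels says which animals made each library, so p-values measure the spread between libraries. Motifs were searched on both strands, with a palindrome counted once. Named were the 10 genes, genes whose TSS shares their promoter regions, and of the pathway list up to 4 per direction in a comparison by adjusted p among those that passed. Genes, lists and rules were chosen with earlier results of these data known. Alternatives were ranking by fold, normal scores, centred widths, q under 0.01, lists of equal length (6157), merging at 100 bp, regions in at least 8 lists, no variance trend, a replicate block, an exact permutation test (60 arrangements, smallest p 0.0167) and leaving out each library.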

Additional observations from a re-analysis of the deposited data

Results flagged for a closer look

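Genotype effects of opposite sign in young and old mice marked 3 results, each because every EC-K4KO library lay on one side of the WT Cre libraries of its age in young mice and on the other side in old mice. How many of all shared regions had such an order was not counted, so the 3 cannot be set against a background. The interaction was fitted in limma, and with all 9 libraries none passed after adjustment. At the Slc12a3 intronic region named for Herpud1, strength was lower in young EC-K4KO by a mean of -9.14 points and higher in old EC-K4KO by 4.72 points, an interaction of 13.9 points (SE 9.22, adjusted p = 0.601). At the Ppp1r15a TSS region the differences in strength were -11.3 and 7.25 points, an interaction of 18.5 points (SE 12.3, adjusted p = 0.601). The highest young EC-K4KO and the lowest young WT Cre library there both had a percentile of 47.0, and the order rests on a difference beyond the first decimal. At the Hspa5 TSS region width differed by 0.76 in young and -0.07 in old mice on the log2 scale, an interaction of -0.83 (SE 0.33, adjusted p = 0.137). The order in old mice rests on widths of 774 bp (WT Cre) and 773 bp (EC-K4KO). Without young EC-K4KO replicate 1 the interaction passed (-1.08, limma adjusted p = 0.00923), as 1011 of 4908 regions did. Groups of 2 or 3 libraries were not examined for outlying samples.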

How the results depend on the processing

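Values are given for the setting named, and the cause of each change was not tested. In lists of equal length, the differences in genes with a promoter peak were -0.167 for genotype (0.333 as reported) and -0.833 for age (0.667), and those in peaks outside the promoter class were -1.17 (5.5) and 1.17 (8). Counting any peak over a TSS gave 1.33 and 1.67 genes. Of the 8 regions, 2 passed for strength with age, 1 to 4 with a library left out and 0 by the exact permutation test, which called 0 of 4872 regions for genotype or age. The exact test passes a region only if very many regions share its smallest p of 0.0167, so its results do not decide on single regions. Lists of equal length tested 6 of the 8. For width and genotype 2 passed, 1 in lists of equal length, 0 with widths centred, 0 by the exact test and 0 to 4 with a library left out. For width and age 5 passed, 3 in lists of equal length, 2 centred, 0 by the exact test and 2 to 6 with a library left out. For the width interaction 0 to 2 passed with a young EC-K4KO library left out, 2 without replicate 1, where 1011 of 4908 regions passed. Unlike the ranges above, this one leaves out fits with a single library in a group, so it does not cover every omission. Centred widths gave -0.061 for Eif2ak3 and genotype, and -0.44 for Eif2ak3, -0.015 for Hspa5 and -0.16 for the Herpud1 TSS with age. Over 780 values of the 8 regions under alternatives, 736 kept their sign, 40 had the other sign with neither value called and 4 reversed with a call. A call was lost in 29 and gained in 15.

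Settings differed in the number of regions tested, so the counts below are not compared directly across them. Over the 4872 shared regions, 12 passed for strength and genotype, 56 without a variance trend, 22 with normal scores and 0 ranked by fold. In other sets, 91 of 7992 passed in at least 8 lists, 3 of 4086 with q under 0.01 and 0 of 3305 in lists of equal length. With a young EC-K4KO library left out 0 to 7 passed, of 4872 to 4908 regions. Fits without a library of any other group leave a single library in that group and are not counted here. The ranges in this paragraph, also those for the interaction, do not cover such fits. The interaction gave 0, also with a young EC-K4KO library left out. For strength and age 972 passed, 1548 of 7992 in at least 8 lists and 731 to 834 with a young EC-K4KO library left out. For width and genotype 1512 passed, 15 centred and 809 to 2297 with a young EC-K4KO library left out. For width and age 3302 passed, 5308 of 7992 in at least 8 lists, 2172 of 3305 in lists of equal length and 415 centred. With a young EC-K4KO library left out 2805 to 3163 passed. For the width interaction 421 passed, 21 centred and 178 to 1011 with a young EC-K4KO library left out.

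Replicate numbers did not pair the libraries (correlations of deviations for strength from -0.0195 to 0.132). With a replicate block, 0 regions passed for strength and genotype and 747 for age, including 2 of the 8. For width 494 passed for genotype, 0 of the 8 among them, 3013 for age, 6 of the 8 among them, and 39 for the interaction. Depth is unknown, and groups of 2 or 3 libraries limit every comparison.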
